A study of Arabidopsis thaliana with 11 samples.

Results

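The aquaporin family of Arabidopsis thaliana was examined here in root tips of wild-type Col-0 and of 3 mutants, as 35 genes taken by their locus identifiers. It comprises 13 plasma membrane intrinsic proteins (PIP), 10 tonoplast intrinsic proteins (TIP), 9 nodulin 26-like intrinsic proteins (NIP) and 3 small basic intrinsic proteins (SIP). All 35 identifiers were present among the 28495 genes of each table. Gene names are written with a hyphen, so that PIP1-1 (AT3G61430) is the gene also written PIP1;1.

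RNA sequencing was done on total RNA of root tips from seedlings grown upright on agar with sucrose under constant light. The 11 samples formed 4 groups: 3 of Col-0, 2 of crn-3 (the coryne-3 allele of CRN), 3 of clv2-gabi (a clavata2 allele of CLV2) and 3 of cle40-2 (an allele of CLE40), all in the Col-0 background. CRN and CLV2 encode membrane proteins of CLE peptide signalling, and CLE40 encodes a CLE peptide that acts in the root tip. Seedling age, the length of the tip and the nature of each mutation were not in the labels, which also do not say whether replicates came from separate cultures.

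For each mutant the authors' deposited table gives 1 Col-0 mean and 1 mutant mean of normalised counts per gene, their ratio to 2 decimals (the fold change) and an adjusted p to 3 decimals. Every mean, fold change and adjusted p below is from these tables. The tables hold no value per sample, so no SD is available, sequencing depth is unknown, and the replicate spread enters only through the authors' adjusted p. A gene was called higher or lower where that p, from the authors' DESeq run, was under 0.05, and no unadjusted p is listed. The tables share the 3 Col-0 samples and so are not independent of each other.

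The mutated genes did not themselves show a loss of transcript. CLV2 averaged 198 in Col-0 and 4248 in the libraries labelled clv2-gabi in the authors' deposited table, 21.44-fold higher with an adjusted p that rounds to 0. CRN had means of 91 and 111 for crn-3, and CLE40 had means of 1 and 3 for cle40-2, neither of them called. From a Col-0 mean of 1, a fall of CLE40 could hardly have been seen. The labels could therefore not be checked by a fall of the mutated gene, and each direction below is that of the libraries so labelled. All 11 mitotic markers and all 5 root cap markers had means of at least 10 in every table.

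Aquaporins are membrane channels that let water cross, and some of them also pass small uncharged molecules such as hydrogen peroxide, ammonia, urea, glycerol or boric acid. PIPs sit mainly in the plasma membrane and TIPs in the vacuolar membrane, NIPs carry metalloids such as boron and arsenic, and SIPs are found in the endoplasmic reticulum. In roots, PIPs and TIPs account for much of the water flow from cell to cell and into the vacuole of elongating cells.

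The pore of a typical aquaporin is lined by a pair of asparagine-proline-alanine motifs. In the coding sequences of the TAIR10.1 reference (RefSeq), all 13 PIPs and all 10 TIPs held 2 such codon triplets, each SIP held 1, and of the NIPs 4 held 2, 4 held 1 and NIP5-1 held 0. The first triplet is shown in capitals within 45 bases of the spliced coding sequence, for the 3 genes called in crn-3 and for the NIP and the SIP of highest Col-0 level, to show the motif in each subfamily.
PIP1-1: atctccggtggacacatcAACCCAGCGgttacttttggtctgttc
PIP2-6: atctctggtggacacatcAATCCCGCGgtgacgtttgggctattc
TIP2-1: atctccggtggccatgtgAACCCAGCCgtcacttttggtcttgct
NIP1-1: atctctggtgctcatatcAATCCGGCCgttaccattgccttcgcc
SIP1-1: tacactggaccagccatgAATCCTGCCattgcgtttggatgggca
Both AAC and AAT were used for the asparagine of this triplet. In SIP1-1 it was the only triplet of the gene and lay at codon 185 of 240, so its stretch is not at the matching place. In the other 4 genes it lay between codons 83 and 114. The PIP1-1, PIP2-6 and SIP1-1 stretches each cross an intron, at chr3:22733978-22734286 (plus strand), chr2:16291861-16292410 (plus strand) and chr3:1072484-1072735 (minus strand). The TIP2-1 and NIP1-1 stretches lie within 1 exon each, at chr3:5505865-5505909 (plus strand) and chr4:10422932-10422976 (minus strand).

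In Col-0, a few genes carried most of the family's transcript. Levels are given as the Col-0 mean of normalised counts per kb of exon, taken from the authors' deposited table for clv2-gabi, with exon lengths of TAIR10.1. PIP2-7 (AT4G35100) was highest at 11028 per kb, PIP1-2 (AT2G45960) followed at 9939 and NIP1-1 (AT4G19030) at 7681. TIP1-2 stood at 5800 and PIP1-3 at 4720, and these first 5 genes together held 67.0% of the family's level per kb. PIP1-2 and PIP2-7 encode water channels of the plasma membrane, TIP1-2 a vacuolar one, and NIP1-1 a channel that also admits arsenite.

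A middle group followed in this order of Col-0 level per kb. TIP4-1 stood at 3237, TIP2-1 at 2712, SIP1-1 at 2392, TIP1-1 at 2162, PIP2-2 at 1965 and PIP1-4 at 1649. PIP2-1 had a level of 1239 per kb, PIP1-1 of 1082 and SIP2-1 of 957. Among these, TIP1-1 and TIP2-1 are the gamma-TIP and delta-TIP of the older literature, and TIP4-1 can carry urea as well as water. The boric acid channel NIP5-1 was at 443 per kb, and PIP1-5, PIP2-4, PIP2-8, PIP2-6, PIP2-3 and SIP1-2 ran from 354 down to 97.1. Without values per sample, it was not possible to say which neighbours in this order differ beyond their spread.

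The remaining 14 members were low or at 0 in Col-0. NIP2-1, TIP2-2, NIP3-1, TIP2-3 and NIP1-2 had Col-0 means of 29, 28, 24, 16 and 12 normalised counts in the authors' deposited table for clv2-gabi. NIP6-1 had a mean of 7, and NIP7-1 and PIP2-5 of 1. Listed at 0 were TIP1-3 and TIP5-1, which are pollen aquaporins, TIP3-1 and TIP3-2, which belong to seeds, and the pollen genes NIP4-1 and NIP4-2. Neither NIP4 gene had an adjusted p in any of the 3 tables.

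**Figure D1:**
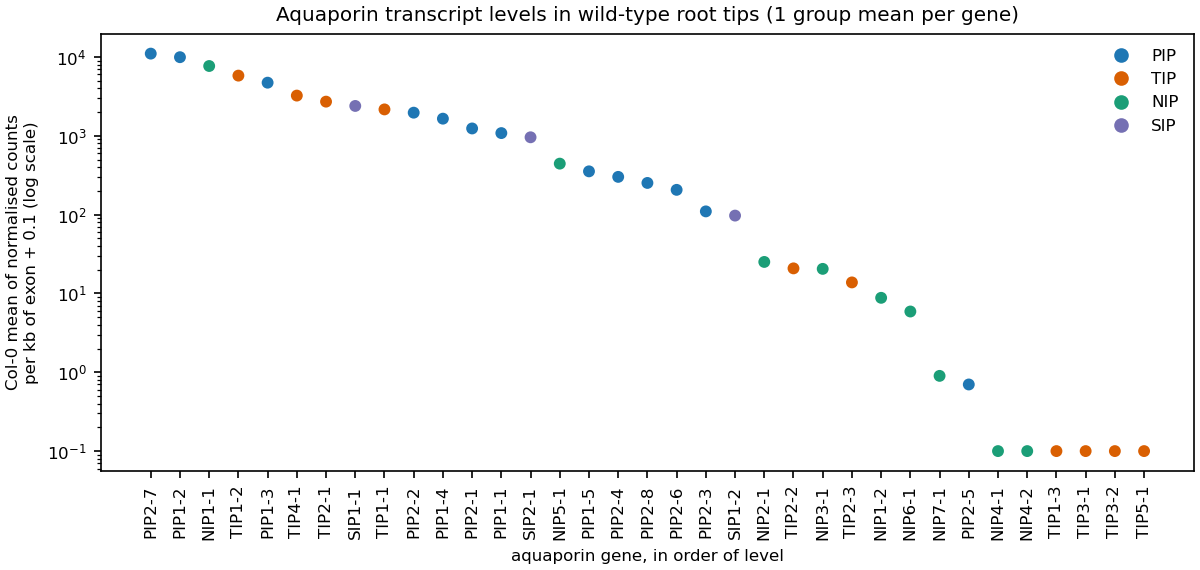
Each point is the Col-0 mean of normalised counts per kb of exon for 1 of the 35 aquaporin genes, plus 0.1, on a log axis, with genes in order of level on the horizontal axis and colour for the subfamily. PIP2-7, PIP1-2, NIP1-1, TIP1-2 and PIP1-3 lead, and 6 genes are listed at 0.

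In the libraries labelled clv2-gabi, much of the family was lower than in Col-0. The authors' deposited table tested 32 members and called 11 lower and 0 higher, which is 34.4% lower, where 1.59% of all tested genes there were called lower and 0.3% higher. By subfamily, 7 of 13 PIPs and 4 of 9 tested TIPs were lower, and 0 of 7 tested NIPs and 0 of 3 SIPs were called. The median fold over the 26 members with a mean of at least 10 over both groups was 0.722, and 24 of them were below 1, beside a median fold of 1.01 over all genes. Since these are whole root tips, fewer cells of a type and less RNA per cell cannot be told apart.

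Among the PIP1 genes, PIP1-1 (chr3:22733243-22735394, plus strand, 4 exons) fell the most in clv2-gabi. Its mean was 1684 in Col-0 and 828 in clv2-gabi in the authors' deposited table, a fold of 0.49 with an adjusted p that rounds to 0. PIP1-4, which also admits hydrogen peroxide, went from 3086 to 2176 (fold 0.71, adjusted p 0.017), and PIP1-5 from 470 to 293 (fold 0.62, adjusted p 0.002). The abundant PIP1-2 had means of 14998 and 11391 with a fold of 0.76 and was not called (adjusted p 0.135), and PIP1-3 had a fold of 0.89. PIP1 proteins reach the plasma membrane largely in complexes with PIP2 proteins.

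The proteins of the PIP2 genes are strong water channels. PIP2-1 and PIP2-2, known for their part in the hydraulic conductivity of roots, both fell in clv2-gabi. In the authors' deposited table PIP2-1 had means of 1949 and 1328 (fold 0.68, adjusted p 0.007). PIP2-2 went from 2368 to 1576 (fold 0.67, adjusted p 0.003). PIP2-4, a gene expressed mainly in roots, went from 436 to 243 (fold 0.56), and PIP2-6 from 311 to 168 (fold 0.54), each with an adjusted p that rounds to 0. The most abundant PIP2 gene was not called, since PIP2-7 had means of 17678 and 14087 (fold 0.80, adjusted p 0.396). PIP2-8 was the one PIP above 1, with means of 373 and 413 (fold 1.11, adjusted p 1).

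Of the vacuolar TIPs, each of the 4 with a Col-0 mean above 1000 fell in clv2-gabi. TIP1-1 (AT2G36830) had means of 2674 in Col-0 and 1650 in clv2-gabi in the authors' deposited table, a fold of 0.62 with an adjusted p that rounds to 0. TIP1-2 went from 7482 to 5198 (fold 0.69, adjusted p 0.007). TIP2-1 (AT3G16240), which passes ammonia as well as water, went from 3225 to 1830 (fold 0.57), and TIP4-1 (AT2G25810) from 3800 to 2255 (fold 0.59), both with an adjusted p that rounds to 0. TIP2-2 and TIP2-3 were far rarer, with folds of 0.75 and 0.63 and an adjusted p of 1 each. The summed mean of the 10 TIPs was 17225 in Col-0 and 10965 in clv2-gabi, a ratio of 0.637, and that of the 13 PIPs was 50799 and 39150, a ratio of 0.771.

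The NIPs and SIPs gave no call in clv2-gabi. NIP1-1 had means of 9194 and 7511 (fold 0.82, adjusted p 0.557) and NIP5-1, which takes up boric acid, means of 962 and 710 (fold 0.74, adjusted p 0.109) in the authors' deposited table. NIP3-1 had the lowest fold of a NIP with a mean of at least 10, 0.54, on means of 24 and 13 with an adjusted p of 0.701. SIP1-1, SIP1-2 and SIP2-1 had folds of 0.89, 0.93 and 0.95. The median fold was 0.817 over 5 NIPs and 0.932 over the 3 SIPs.

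Fewer members were called in crn-3, which had 2 samples. The authors' deposited table called lower 3 of 30 tested members and higher 0, which is 10.0%, where over all genes 0.25% were lower and 0.189% higher. PIP1-1 went from a mean of 1562 in Col-0 to 836 in crn-3, a fold of 0.54 with an adjusted p that rounds to 0. PIP2-6 went from 289 to 154 (fold 0.53, adjusted p 0.008) and TIP2-1 from 2990 to 1817 (fold 0.61, adjusted p 0.007). These 3 genes are a PIP1, a PIP2 and a vacuolar channel.

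Other members in crn-3 had folds under 1 without a call. TIP1-1 had means of 2480 and 1612 (fold 0.65, adjusted p 0.057) and PIP2-4 of 404 and 250 (fold 0.62, adjusted p 0.082) in the authors' deposited table. PIP1-5 had a fold of 0.64 (adjusted p 0.152), PIP2-2 of 0.73 (adjusted p 0.727) and TIP4-1 of 0.77 (adjusted p 1). The NIPs with a mean of at least 10 had folds from 0.84 to 0.99 and the SIPs from 0.83 to 0.93. The median fold over 26 members was 0.827, with 24 of them below 1, beside a median fold of 1.0 over all genes. By subfamily the median was 0.77 for PIPs, 0.714 for TIPs, 0.878 for NIPs and 0.893 for SIPs. A direct test of crn-3 against clv2-gabi was not possible from the group means, so a call in one table and none in the other does not show that the mutants differ.

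**Figure D2:**
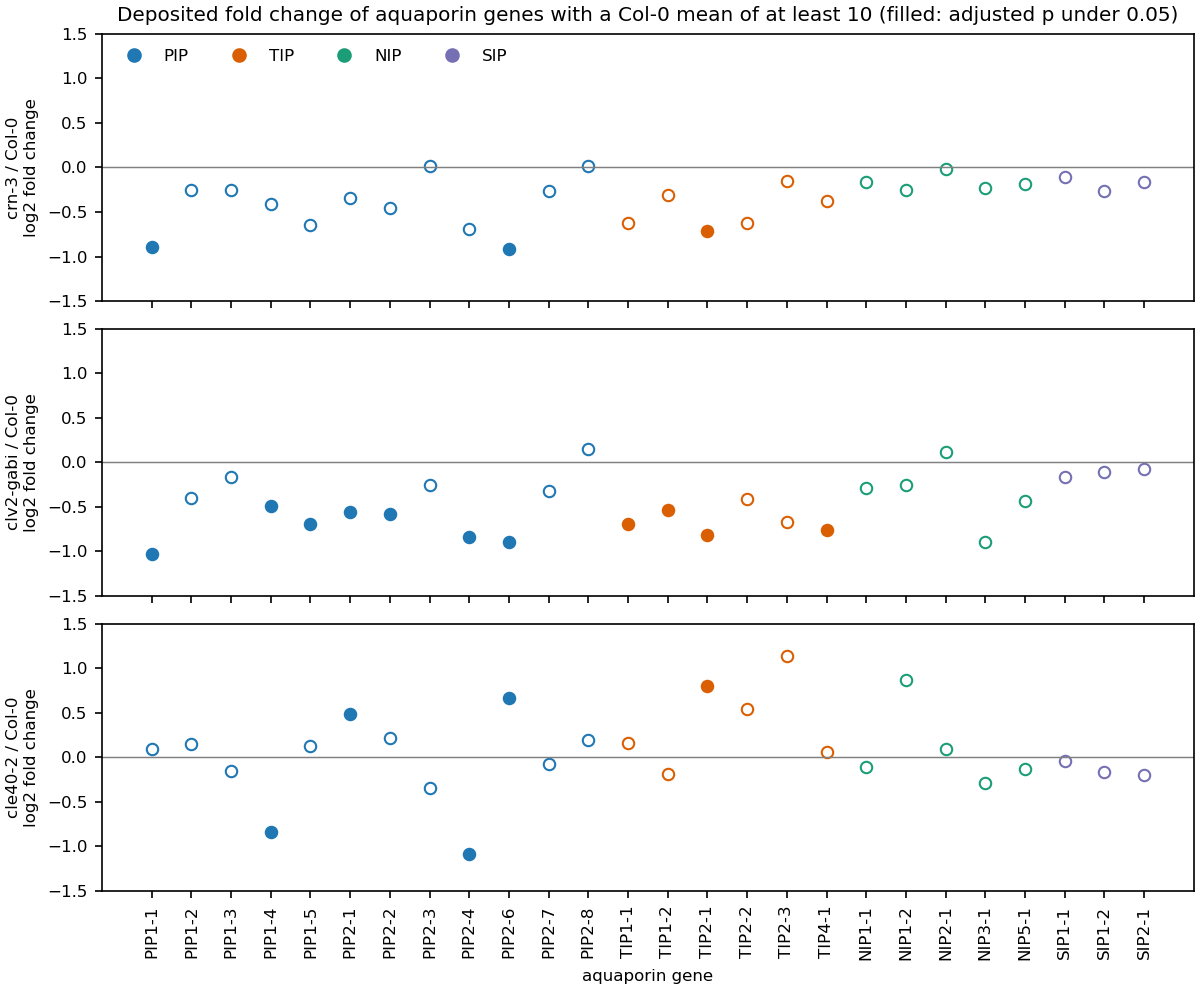
The vertical axis of each panel is the log2 of the deposited fold change against Col-0 for crn-3, clv2-gabi and cle40-2, and the horizontal axis holds the 26 aquaporin genes with a Col-0 mean of at least 10. Filled points had an adjusted p under 0.05 and colours mark subfamilies, and the filled points lie below 0 in the first 2 panels and on both sides in the third.

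The libraries labelled cle40-2 gave calls in both directions. The authors' deposited table had 33 tested members, of which 4 were called higher and 2 lower, which is 12.1% and 6.06%, where over all genes 3.21% were higher and 1.94% lower. The median fold over 28 members with a mean of at least 10 was 1.08, with 16 above and 12 below 1, beside 1.0 over all genes. PIP2-5 and NIP6-1 passed the minimum of 10 only through their cle40-2 means, so they had to lie above 1 there. On the log2 scale the median was 0.11, and with a minimum mean of 50 it changed sign to -0.049.

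The 4 members that rose in cle40-2 were 3 PIP2 genes and TIP2-1. The authors' deposited table gave PIP2-1 means of 1960 in Col-0 and 2744 in cle40-2 (fold 1.4, adjusted p 0.028). PIP2-6 went from 313 to 497 (fold 1.59, adjusted p 0.005). TIP2-1 went from 3242 to 5645, a fold of 1.74 with an adjusted p that rounds to 0. PIP2-5 (AT3G54820), close to absent in Col-0, went from a mean of 1 to 24, with a deposited fold of 30.64 that rests on the unrounded means and an adjusted p that rounds to 0.

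The 2 members that fell in cle40-2 were PIP1-4 (AT4G00430) and PIP2-4 (AT5G60660). PIP1-4 went from 3102 to 1723 (fold 0.56) and PIP2-4 from 438 to 206 (fold 0.47) in the authors' deposited table, each with an adjusted p that rounds to 0. Both are plasma membrane channels, and PIP2-4 is expressed mainly in roots. The other PIPs had folds from 0.79 for PIP2-3 (adjusted p 0.606) to 1.16 for PIP2-2 (adjusted p 0.659). PIP1-1 had means of 1693 and 1812 with a fold of 1.07 and an adjusted p of 0.967.

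The remaining TIPs, the NIPs and the SIPs gave no call in cle40-2. TIP1-1, TIP1-2 and TIP4-1 had folds of 1.12, 0.88 and 1.04 in the authors' deposited table. TIP2-3, an ammonia channel of roots, had means of 16 and 36 with a fold of 2.20 and an adjusted p of 0.136. NIP1-1 had a fold of 0.93 and NIP5-1 of 0.91, and NIP1-2 had one of 1.83 on means of 12 and 21 (adjusted p 0.59). The 3 SIPs had folds from 0.87 to 0.97. Of the seed and pollen members, TIP3-1 and TIP3-2 were listed at 0 in Col-0 and at means of 4 and 2 in cle40-2, with adjusted p of 0.409 and 0.891, and TIP1-3 and TIP5-1 at 0 and 1. Both NIP4 genes were at 0 in every group.

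Set side by side, the members called more than once took different courses. TIP2-1 had folds of 0.61 in crn-3, 0.57 in clv2-gabi and 1.74 in cle40-2 in the authors' deposited tables, and PIP2-6 had folds of 0.53, 0.54 and 1.59. PIP2-1 had folds of 0.79, 0.68 and 1.4, the first of them not called. PIP2-4 had folds of 0.62, 0.56 and 0.47 and PIP1-4 of 0.75, 0.71 and 0.56, in both cases without a call in crn-3. PIP1-1 had folds of 0.54, 0.49 and 1.07, and was not called in cle40-2. Of the other 29 genes, 6 were called once and 23 were called in no table.

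Summed over all 35 genes, the family stood lower in crn-3 and clv2-gabi and close to Col-0 in cle40-2. The sum of means was 76625 in Col-0 and 61989 in crn-3 (ratio 0.809), 82627 and 62358 in the clv2-gabi table (ratio 0.755), and 83061 and 84209 in the cle40-2 table (ratio 1.01), all from the authors' deposited tables. As a share of all normalised counts, the family made up 0.287% in Col-0, 0.234% in crn-3, 0.223% in clv2-gabi and 0.298% in cle40-2. In cle40-2 the summed TIP mean went from 17316 to 19353 and the summed NIP mean from 10280 to 9572. These sums are a description with no test, and they weigh the abundant genes most.

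**Figure D3:**
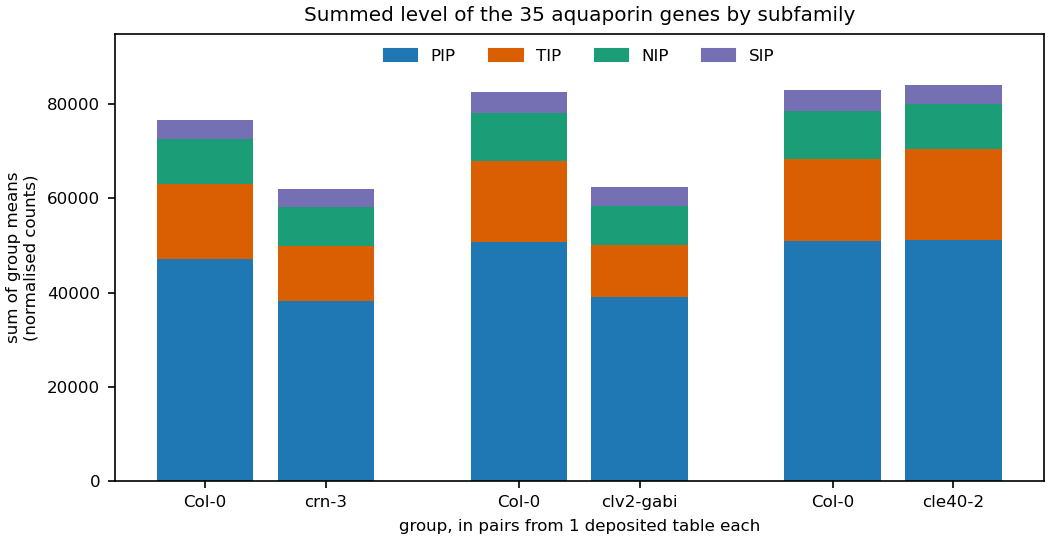
Bars give the sum of the group means of the 35 aquaporin genes in normalised counts, stacked by subfamily, in pairs of Col-0 and mutant taken from the same deposited table. The bar of crn-3 ends at 61989 and that of clv2-gabi at 62358, below their Col-0 bars, and that of cle40-2 ends at 84209 beside 83061 in Col-0.

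The calls were also counted by Col-0 level, as a description. The share of all genes called at the same level was not counted, so these counts do not set the family against its level. Over all tested genes of any level, 1.59% were lower in clv2-gabi and 0.25% in crn-3. In cle40-2, 3.21% of all tested genes were higher and 1.94% lower. Of the 14 members with a Col-0 mean of 1000 or more, 8 were lower in clv2-gabi and 2 in crn-3, and of the 7 members between 100 and 1000, 3 and 1 were lower. In cle40-2, 2 members were higher and 1 lower at 1000 or more, 1 was higher and 1 lower between 100 and 1000, and PIP2-5 was higher with a Col-0 mean of 1. None of the 5 members between 10 and 100 was called in any table, where all genes also scattered widely. Between means of 10 and 50, the central 95% of all genes spanned deposited folds from 0.42 to 1.72 in clv2-gabi, and at means of 1000 or more from 0.79 to 1.16. Read against that range for genes of their own level, 12 of 26 members lay below it in clv2-gabi and 11 of 26 in crn-3, with 0 above it in either. In cle40-2, where 95% of genes with means of 1000 or more spanned 0.77 to 1.31, 2 of 28 members lay below their range and 4 above. Those above were PIP2-1, PIP2-6, PIP2-5 and TIP2-1. PIP2-5 passed the minimum of 10 only through its cle40-2 mean, and TIP2-1 lies in the raised stretch of chromosome 3 described below. Such a range describes genes and is not a replicate error.

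**Figure D4:**
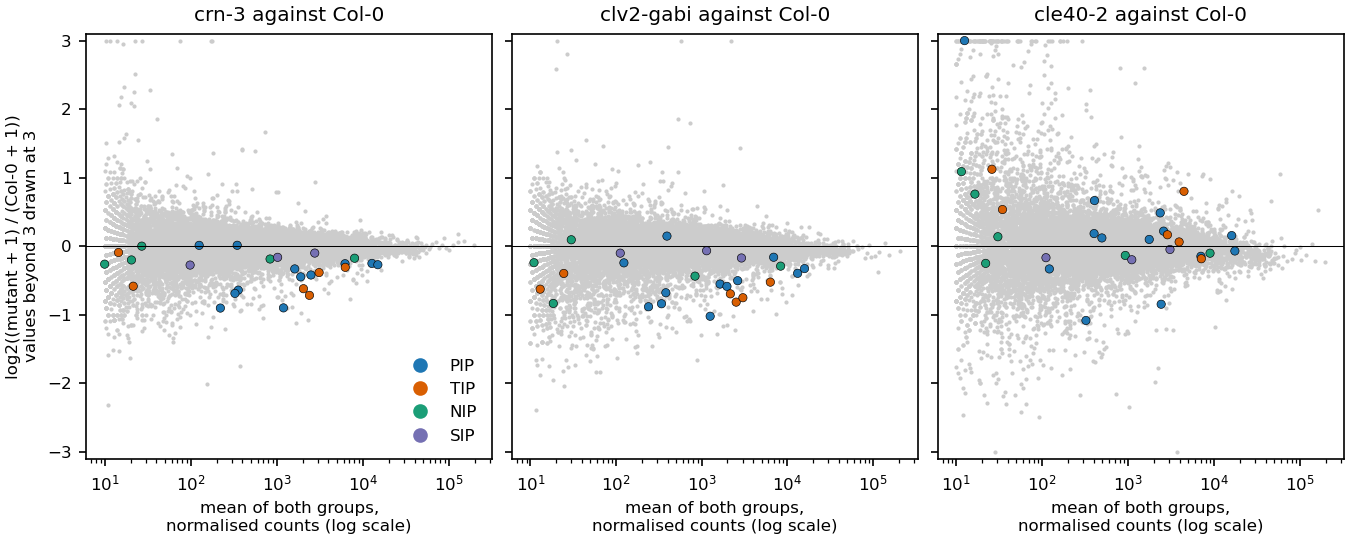
Each panel plots log2((mutant + 1) / (Col-0 + 1)) against the mean of both groups in normalised counts (log axis) for every gene with a mean of at least 10 (grey) and for the aquaporin genes (coloured by subfamily), with values beyond 3 drawn at 3. Most coloured points at high means lie below 0 for crn-3 and clv2-gabi, where 24 of 26 members had folds under 1 in each, and they lie on both sides of 0 for cle40-2.

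TIP2-1 stood in a stretch of chromosome 3 where many genes were higher in cle40-2. The gene lies at chr3:5505360-5507050 on the plus strand of TAIR10.1, and its end overlaps the end of AT3G16250 (PnsB3), which had means of 0 to 1. In the authors' deposited table for cle40-2 its neighbours AT3G16230 had a fold of 2.14, TRZ4 of 2.04, AT3G16270 of 2.00, EMB2083 of 2.05, AT3G16200 of 1.92 and AT3G16190 of 1.70, each with an adjusted p that rounds to 0. AT3G16220 had a fold of 1.8 (adjusted p 0.033), and the low genes AT3G16210 and AT3G16280 were not called. The neighbours did not share TIP2-1's lower values elsewhere, since AT3G16230 had folds of 1.03 in crn-3 and 1.01 in clv2-gabi and AT3G16270 of 1.02 and 0.96.

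Within 100 kb on either side of TIP2-1, 24 of 52 tested genes were higher and 4 lower in cle40-2, with a median fold of 1.53 in the authors' deposited table. The same flanks had median folds of 1.02 in crn-3 and 1.00 in clv2-gabi. Around the other 34 members the median fold in cle40-2 ran from 0.94 to 1.05. A block from 30 kb before to 370 kb after TIP2-1, with edges chosen after its values were seen and so with no test, held 76 genes with a mean of at least 10. Of these 66 were higher and 3 lower, with a median fold of 1.92, beside medians of 0.985 and 1.02 over the rest of the 1000 kb on the left and right. In crn-3 and clv2-gabi the block had median folds of 1.02 and 1.01. TIP2-1, at 1.74, is the only one of 9 aquaporin genes of chromosome 3 inside it, and its rise in cle40-2 cannot be told apart from that of the block. The other 3 members that rose lie outside it.

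**Figure D5:**
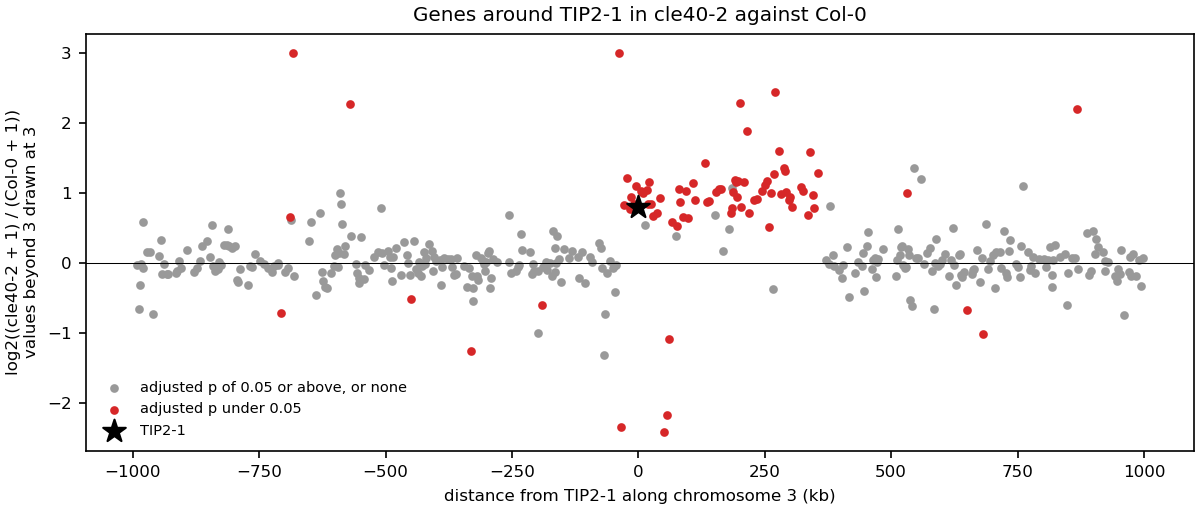
Points are genes within 1000 kb of TIP2-1 with a mean of at least 10, placed by distance in kb and by log2((cle40-2 + 1) / (Col-0 + 1)), with values beyond 3 drawn at 3, and red marks an adjusted p under 0.05. Between -30 and 370 kb 66 of 76 genes are called higher, and TIP2-1 (star) lies among them.

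Close relatives within the family can exchange reads, and the counting method was not given in the sources used here. PIP2-2 and PIP2-3 are neighbours on chromosome 2, with coding sequences 94.8% identical and an identical run of 242 bases. In PIP2-2 83.3% of 50-base windows of the exons occur once in the genome, and in PIP2-3 83.5%. The last 90 coding bases show where they part, with the differing bases in capitals.
PIP2-2: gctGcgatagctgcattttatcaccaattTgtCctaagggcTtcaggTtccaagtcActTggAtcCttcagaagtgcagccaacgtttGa
PIP2-3: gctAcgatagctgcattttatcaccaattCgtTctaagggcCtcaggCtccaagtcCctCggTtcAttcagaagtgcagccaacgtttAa
The PIP2-2 stretch lies at chr2:15613624-15613713 on the minus strand and the PIP2-3 stretch at chr2:15618848-15618937 on the plus strand of TAIR10.1. PIP2-3 was the lower of the pair, with Col-0 and mutant means of 134 and 113 in clv2-gabi and 135 and 107 in cle40-2 in the authors' deposited tables, and its values are uncertain to the extent that reads of PIP2-2 were assigned to it. The next closest PIP pair for the results, PIP1-1 and PIP1-2, was 87.6% identical with an identical run of at most 41 bases, and every 50-base window of both was unique. Their folds in clv2-gabi were 0.49 and 0.76.

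The stretch of 300 bases before the annotated gene start is shown for the 3 members called lower in both crn-3 and clv2-gabi, with matches to the motifs searched in capitals (TAIR10.1, read 5′ to 3′ on the gene's strand, which is plus for all 3).
PIP1-1: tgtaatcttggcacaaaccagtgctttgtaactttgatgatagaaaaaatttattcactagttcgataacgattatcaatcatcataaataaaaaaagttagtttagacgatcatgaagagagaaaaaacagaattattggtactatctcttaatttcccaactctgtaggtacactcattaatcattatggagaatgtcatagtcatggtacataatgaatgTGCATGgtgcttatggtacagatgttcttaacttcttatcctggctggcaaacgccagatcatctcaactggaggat
PIP2-6: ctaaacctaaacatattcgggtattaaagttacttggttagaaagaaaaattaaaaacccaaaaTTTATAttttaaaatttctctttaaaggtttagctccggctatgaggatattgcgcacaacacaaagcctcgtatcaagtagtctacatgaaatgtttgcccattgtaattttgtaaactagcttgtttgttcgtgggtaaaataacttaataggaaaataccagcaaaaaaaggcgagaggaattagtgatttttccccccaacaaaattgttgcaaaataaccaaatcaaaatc
TIP2-1: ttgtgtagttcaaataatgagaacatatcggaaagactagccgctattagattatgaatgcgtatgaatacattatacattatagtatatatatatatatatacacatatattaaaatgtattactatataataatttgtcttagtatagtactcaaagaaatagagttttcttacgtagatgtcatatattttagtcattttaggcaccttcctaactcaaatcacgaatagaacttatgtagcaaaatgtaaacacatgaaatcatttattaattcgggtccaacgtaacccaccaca
They lie at chr3:22732943-22733242, chr2:16290980-16291279 and chr3:5505060-5505359. The motifs were searched on both strands. TATAAA, the letters of the core promoter motif, was counted at any place in the 300 bases. It was in 14 of the 35 members (40.0%), beside 53.1% of 28007 promoters of the same length. The core of the abscisic acid response element, ACGTG, was in 4 members (11.4%, beside 25.6%). The G-box CACGTG, which contains that core, was in 0 members (beside 7.07%). The RY motif of seed genes, CATGCA, was in 10 members (28.6%, beside 10.6%). The root hair element, by its published consensus, was in 0 members (beside 0.907%). PIP1-1 held 1 RY match and PIP2-6 held 1 TATAAA match, both on the strand opposite to the gene, and TIP2-1 held none of these. A match here is only a run of letters.

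Genes that work with aquaporins, or move ions and boron beside them, were counted from 4 lists. None of 8 regulators of aquaporin trafficking was called in any table, with median folds of 0.952 in crn-3, 0.926 in clv2-gabi and 0.962 in cle40-2 in the authors' deposited tables. Of 27 genes listed under vacuolar proton pumps, a class that energises the membrane that holds the TIPs, none of the 26 tested was called either. Their median folds were 0.924, 0.888 and 0.907. Of the 25 with a mean of at least 10, folds were below 1 for 21 in crn-3, 25 in clv2-gabi and 21 in cle40-2. Over all genes with such a mean, 8698 of 18117, 8227 of 18174 and 8988 of 18406 were below 1. Of 7 boron exporters, which move on the boron that NIP5-1 lets in, cle40-2 had 1 higher and 1 lower, 14.3% each beside the 3.21% and 1.94% of all genes. BOR2 had means of 1966 and 2933 (fold 1.49, adjusted p 0.003) and BOR5 of 125 and 55 (fold 0.44, adjusted p rounding to 0). Of 12 potassium channels, transporters and their regulators, cle40-2 had the kinase CIPK23 higher (fold 1.39, adjusted p 0.04) and the outward channel GORK (fold 0.56, adjusted p rounding to 0) and the calcium sensor CBL1 (fold 0.68, adjusted p 0.048) lower, which is 8.33% higher and 16.7% lower. In crn-3 and clv2-gabi neither of these last 2 lists gave a call.

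Some markers of root hairs, endodermis and xylem were called in these mutants as well. Over all tested genes, 1.59% were lower in clv2-gabi, 0.25% lower in crn-3 and 3.21% higher in cle40-2. Of 9 root hair markers, 5 were lower in clv2-gabi, 1 was lower in crn-3 and 5 were higher in cle40-2 in the authors' deposited tables, with median folds of 0.484, 0.679 and 1.83 and none at 0. Their summed mean went from 2633 to 1767 in clv2-gabi, from 2442 to 1877 in crn-3 and from 2647 to 3368 in cle40-2. RHD6 went the other way in cle40-2, with a fold of 0.8 and no call. EXPA7, an expansin of root hairs, had folds of 0.33 in clv2-gabi and 1.85 in cle40-2 (adjusted p rounding to 0 and 0.008). Of 8 endodermis markers, 6 were higher in cle40-2, where the Casparian strip gene CASP1 went from 60 to 198 (fold 3.27), and the list's median fold was 2.57. In crn-3 and clv2-gabi none of the 8 was called, with median folds of 0.76 and 0.677. The sums of the 8 went from 2381 to 2407 and from 2567 to 2516, and in cle40-2 from 2579 to 3312. Much of each sum was SCR, which was called in no table and had means of 2180 and 2348 in cle40-2. Of 5 xylem markers, 2 were lower in clv2-gabi, with the sum going from 505 to 364, and none was called in the other tables. The part of these cell types in the aquaporin values was not tested.

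The 11 mitotic markers gave no call in any table, with median folds of 1.05 in crn-3, 1.07 in clv2-gabi and 0.981 in cle40-2 in the authors' deposited tables. Of 5 root cap markers only RCPG was called, higher in crn-3 (fold 1.73) and in clv2-gabi (fold 1.74). Over all tested genes, 0.189% were higher in crn-3, 0.3% in clv2-gabi and 3.21% in cle40-2. Beside the seed genes TIP3-1 and TIP3-2, of 11 seed storage and embryo markers 3 were higher in cle40-2, 1 in crn-3 and 0 in clv2-gabi. The seed storage protein gene CRU3 went from 0 to 383 in cle40-2 and from 0 to 15 in crn-3, and the list's sum was 3 in Col-0 and 506 in cle40-2, with 6 of 11 at 0 in both groups. Green tissue markers were higher in cle40-2 for 15 of 17, with sums of 456 and 2698, and 1 of 17 was higher in clv2-gabi, with sums of 455 and 645. In crn-3 their sums were 424 and 455 with 0 calls. Their part in the cle40-2 values of the aquaporins was not tested.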

How the data were processed

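RNA sequencing of root tips was analysed from 3 deposited tables, each setting 1 mutant against Col-0. Per the submitters' processing notes, CASAVA 1.8.2, DESeq and the TAIR10 genome were used. For the aligner, the read counting and its use of strand, no tool is given in the sources used here. The group means are a score here: normalised counts that the authors averaged per group and rounded to whole numbers, scaled so that the Col-0 means of the tables differ by a constant factor. The fold ratio and the adjusted p-value (from DESeq) are as the authors deposited them, and a p printed there as 0 is given as rounding to 0.

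Computed here, with Python 3.11.15 and pandas 2.3.3, were calls at an adjusted p under 0.05, medians of log2((mutant mean + 1)/(Col-0 mean + 1)) over genes with a mean over both groups of at least 10, and sums. Gene positions, exon lengths and sequences are from RefSeq TAIR10.1. The labels name TAIR10 and the tables hold no coordinates, so genes were matched by locus identifier. All 35 members could be named, and of other genes the mutated ones, called members of 4 companion lists, up to 3 per marker list and the 5 nearest loci on each side of TIP2-1. The members and lists were chosen with earlier results of these data known. Alternatives included other thresholds for p and fold, other minimum means, another pseudocount, and leaving out TIP2-1. Centring on the median of all genes and a minimum share of unique windows were also tried.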

Additional observations from a re-analysis of the deposited data

How the results depend on the processing

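No paired analysis was possible because each table holds group means and no value per sample. For the same reason leaving out each replicate and the replicate block were not run. With an adjusted p threshold of 0.1, the called members in crn-3 numbered 5 in place of 3, with PIP2-4 and TIP1-1 added. With a threshold of 0.01, the called genes numbered 65 in place of 100 in crn-3 and 287 in place of 434 in clv2-gabi. The calls of PIP1-4 in clv2-gabi and PIP2-1 in cle40-2 were lost at 0.01. With a fold of at least 1.5 required, 7 of the 11 members called in clv2-gabi were counted. With no minimum mean, the median TIP change on the log2 scale was -0.20 in crn-3 (-0.49 with the minimum of 10), -0.46 in clv2-gabi (-0.66) and 0.90 in cle40-2 (0.35). That setting added TIP1-3, TIP3-1, TIP3-2 and TIP5-1, all listed at 0 in Col-0, so their log2 change could not be negative. In cle40-2 their means were 1, 4, 2 and 1, none of them called, so the 0.90 does not show a stronger rise. With a minimum mean of 50, cle40-2 gave a median of -0.049 over the members (0.11 with a minimum of 10), 0.11 over the TIPs and -0.12 over the NIPs (0.02), so that the medians of the family and of the NIPs in cle40-2 changed sign with that choice. Without TIP2-1 the TIP median in cle40-2 was 0.17. The other 112 counts, medians and ratios under an alternative stayed within 0.1 on the log2 scale or, for counts, within 1.5 times. Some of these 112 could not move. A minimum of 80% unique 50-base windows left out no member, since the lowest share was 83.3% in PIP2-2. Centring on the median log2 change of all genes, 0.0 in crn-3 and cle40-2, changed nothing for those mutants. Depth is unknown, and members with means under 50 limit any statement on them.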
